A study of Mus musculus with 6 samples.

Results

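The Rab GTPases are the largest branch of the Ras superfamily, and their mRNAs were examined here as protein-coding mouse genes whose symbol is Rab followed by a number and at most 1 letter. Of 59 such genes in the annotation, 58 had a row among the 28822 gene identifiers of the count table, and the remaining one, Rab9b, was not analysed here. The libraries came from macrophages cultured from mouse bone marrow (BMDMs). These cells sat in a Transwell insert, separated by a porous membrane from HT22 cells, hippocampal neurons of a mouse line, that had undergone oxygen-glucose deprivation for 2 h. In 3 libraries the co-culture had received BW723C86, an agonist of the serotonin receptor 5-HT2B, and in the other 3 its vehicle DMSO. Both groups therefore shared the deprived HT22 cells, and no group without them was analysed here. The title of the series gives BMDMs, its design text also allows BV2 microglia, and the labels pair BMDMs with HT22. The sources used here do not give strain, sex, age, dose, time on the drug or how many cultures or animals stand behind the libraries. The p-values thus cover the spread among libraries alone, and part of it may be technical.

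A Rab protein switches between a GDP-bound form, held in the cytosol by a GDP dissociation inhibitor (GDI), and a GTP-bound form on a membrane, where it recruits effectors such as tethers and motors. Guanine nucleotide exchange factors load the GTP and GTPase-activating proteins trigger its hydrolysis. Each Rab marks its own compartment, among them Rab1 and Rab2 between endoplasmic reticulum (ER) and Golgi, Rab5 on early endosomes, Rab11 on recycling endosomes, Rab7 on late endosomes and lysosomes, and Rab27 on secretory granules. In macrophages the conversion of Rab5 to Rab7 on a new phagosome precedes its fusion with lysosomes.

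Membrane attachment depends on cysteines near the carboxyl end that receive geranylgeranyl groups. The last 6 codons before the stop are shown for the 11 members called with a change of at least 0.5 on the log2 scale and for Rab7, the relative of Rab7b, in GENCODE M21 transcripts, with cysteine codons (TGT or TGC) in capitals and all other codons in lower case.
Rab27a: aaggggttgTGTggcTGT
Rab37: agcTGCTGCtcctttgtg
Rab44: agagctggcTGCTGCcac
Rab32: cccaggtcccagTGCTGC
Rab20: agatccgggTGTTGTgcc
Rab7: gcagaaagcTGCagtTGT
Rab7b: ccaaagagcagaTGCTGC
Rab43: agctggggcTGTgggTGC
Rab8b: ttccgcTGTtctctgctt
Rab6b: gagggcggcTGCtccTGT
Rab3a: catcaggatTGTgccTGC
Rab13: aacaagTGCttgttaggc
Of the 58 members, 49 had at least 2 cysteine codons in these 6 positions and 9 had 1. In 20 members the pair closed the reading frame with 1 codon between them, as in Rab27a, Rab7 and Rab43, and in 14 it closed the frame side by side, as in Rab32 and Rab7b. Rab8b and Rab13 ended in the single-cysteine form.

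Total counts ran from 58841307 to 75931615 per library, and 19034 to 20002 genes had at least 1 count. Within groups, BW723C86 replicate 2 stood apart in a chi-square comparison of counts. Its values per degree of freedom were 8.84 and 6.06 against the other BW723C86 libraries. The other 4 pairs within a group gave 2.45 to 2.76 (on counts divided by 4, since low counts pile up at multiples of 4). Of the 29 Rab genes called, replicate 2 was the BW723C86 library nearest the DMSO mean for 15, or 51.7%, against 48.3% of all genes called. A principal component analysis, which orders axes by the variance they hold, placed the libraries otherwise. On its second axis (12.3% of the variance) BW723C86 replicates 1, 2 and 3 lay at 42.5, -11.6 and -31.4, with replicate 2 between the others. Levels are given as CPM, each gene's counts relative to its library's total as adjusted by edgeR's TMM factors. Macrophage markers had the largest sum of the marker lists in both groups (5 higher and 5 lower of 12). They summed to 33612 to 34790 CPM with BW723C86 and 38265 to 39153 CPM with DMSO. Lyz2 led this sum, and the other markers summed to 4697 to 4762 CPM with BW723C86 and 5692 to 5803 CPM with DMSO. The 12 neuronal markers, of which 9 had a row, summed to 30.7 to 34.1 CPM with BW723C86 and 21.5 to 22.4 CPM with DMSO, with Map2 and Nefl at 0 and 1 higher and 1 lower of 3 tested. Syn1 led this sum, and without it the groups overlapped, at 12.2 to 14.3 CPM with BW723C86 and 14.1 to 14.9 CPM with DMSO. Microglial markers (7 of 8 with a row) summed to 192 to 219 CPM with BW723C86 and 135 to 144 CPM with DMSO (2 higher and 3 lower of 6 tested). Fcrls led this sum, and the other markers summed to 10.6 to 12.5 CPM with BW723C86 and 44.3 to 47.4 CPM with DMSO.

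Among the Rab genes, 12 were higher and 17 lower with BW723C86, and 21 did not pass the test. The largest changes were falls: Rab27a and Rab37, both Rabs of secretory granules, fell by more than 2-fold. Rab7b and Rab43, Rabs of late endosomes and of the Golgi, led the rises. These counts are over the 50 members with enough counts to be tested by edgeR's quasi-likelihood test, adjusted over 15567 genes at a threshold of 0.05. The 29 called members made 58% of those tested, where 42% of all tested genes were called (21.3% higher and 20.7% lower). The members were also more abundant than most genes, with a median of 48.5 CPM against 14.4 CPM over all tested genes, and among genes reaching 5 CPM in 3 libraries 28 of 42 members were called (66.7%), beside 52.9% of all such genes. The median log2 fold change, BW723C86 over DMSO, was -0.09 over the members and 0.00 over all tested genes, and the median size of the change, whatever its sign, was 0.26 over the members and 0.27 over all tested genes. Calls of at least 0.5 on the log2 scale numbered 11, of which 8 were lower and 3 higher (18.5% of all tested genes), and 2 members changed 2-fold or more (8.45% of all tested genes). The share called was higher among the members than among all tested genes, a difference that was not tested. With libraries scaled by total counts alone, which moved the median of all genes by -0.07, the split was 8 higher and 21 lower. Without BW723C86 replicate 2 it was 11 higher and 21 lower.

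**Figure D1:**
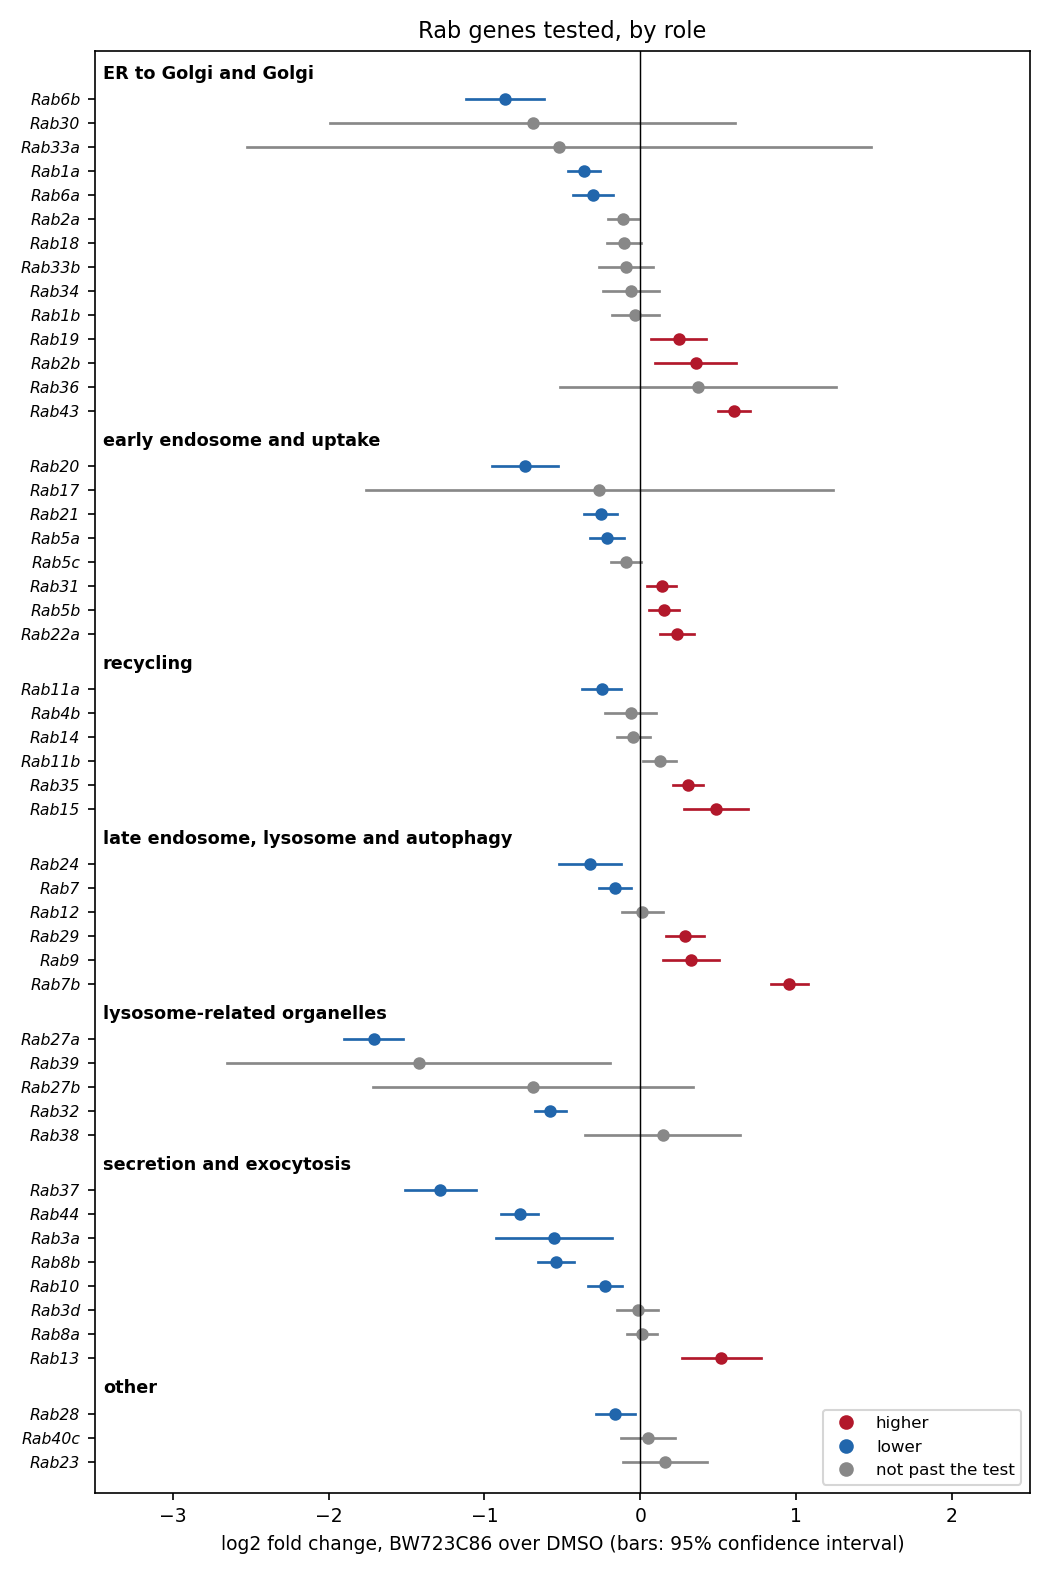
The log2 fold change of each tested Rab gene (x axis, BW723C86 over DMSO) with its 95% confidence interval, grouped by role, red where higher, blue where lower and grey where the edgeR test was not passed. Rab27a at -1.71 and Rab7b at 0.96 are the lowest and highest called members, and every role but the lysosome-related organelles and the unclassed genes holds calls in both directions.

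In 35 members the 3 BW723C86 libraries did not overlap the 3 DMSO libraries, 13 higher and 22 lower, and 52.3% of all tested genes were separated in this way (26.3% higher and 26% lower). The other 8 members were too low to test, with at most 26 counts in a library: Rab3b, Rab3c, Rab4a, Rab25, Rab26, Rab39b, Rab40b and Rab42. Rab3c had no count in any library. Rab42 held that maximum, with counts of 9, 26 and 12 with BW723C86, against 7, 6 and 4 with DMSO.

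Rabs of lysosome-related organelles and of secretion held the 2 largest changes called, both falls. Of 5 tested members assigned to lysosome-related organelles 2 were lower and none higher, and of 8 assigned to secretion and exocytosis 5 were lower and 1 higher, where 20.7% of all tested genes were lower and 21.3% higher. The 40% called among lysosome-related organelle Rabs was close to the 42% of all tested genes. Rab27a, which docks melanosomes and the granules of cytotoxic and other secretory cells at the plasma membrane, had 10.2, 11.2 and 12.8 CPM with BW723C86, against 39.6, 35.2 and 37.1 CPM with DMSO. All BW723C86 libraries lay below all DMSO libraries, the log2 fold change was -1.71 ± 0.088 (SE; edgeR adjusted p = 5.9e-09), and the mRNA was 3.28-fold lower. Rab37, known from mast cell granules, had 5.32, 4.93 and 5.47 CPM with BW723C86, against 11.9, 13.8 and 12.6 CPM with DMSO. Every BW723C86 value was below every DMSO value, with a log2 fold change of -1.28 ± 0.10 (SE; edgeR adjusted p = 5.5e-07). Rab44, a long atypical Rab with an EF-hand region studied in mouse mast cells and osteoclasts, had 38.9, 36.3 and 39.2 CPM with BW723C86, against 66.6, 65.2 and 63.8 CPM with DMSO. Again the groups were apart, with a log2 fold change of -0.77 ± 0.055 (SE; edgeR adjusted p = 1.3e-07). Rab44 was the longest member in coding sequence, at 973 codons, where Rab27a had 221.

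Rab32, which directs cargo to lysosome-related organelles and restricts Salmonella in mouse macrophages, had 86.5, 90.6 and 85.7 CPM with BW723C86, against 134, 126 and 132 CPM with DMSO. It fell in every BW723C86 library relative to every DMSO library, by 0.58 ± 0.046 on the log2 scale (SE; edgeR adjusted p = 4.8e-07). Its close relative Rab38, known with Rab32 for pigment granules, was less abundant per exonic length (1.05 CPM per kb with BW723C86 and 0.952 CPM per kb with DMSO, where Rab32 had 40.8 CPM per kb with BW723C86 and 60.8 CPM per kb with DMSO). It did not pass the test, with 1.62, 1.75 and 1.59 CPM with BW723C86, against 1.21, 1.79 and 1.50 CPM with DMSO and overlapping groups. Its log2 fold change was 0.14, with a 95% interval of -0.35 to 0.64. Rab39, linked to maturing phagosomes, was near the lower limit of detection at 0.209, 0.0973 and 0.118 CPM with BW723C86, against 0.283, 0.431 and 0.424 CPM with DMSO. Its groups did not overlap, and its estimate of -1.42 (95% interval -2.65 to -0.19) missed the threshold at an edgeR adjusted p of 0.061. That p was 0.043 with limma-voom and 0.049 in edgeR with scaling by total counts alone. Rab27b, the relative of Rab27a, was also scarce and not called, with 0.157, 0.389 and 0.473 CPM with BW723C86, against 0.630, 0.547 and 0.475 CPM with DMSO.

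Among the exocytic members, Rab8b, a Rab of traffic to the plasma membrane, had 150.1, 161 and 142 CPM with BW723C86, against 215, 217 and 226 CPM with DMSO. No BW723C86 library reached the DMSO range, and the log2 fold change was -0.54 ± 0.052 (SE; edgeR adjusted p = 2.7e-06). Rab3a, best known for synaptic vesicle release, had 4.24, 2.72 and 3.83 CPM with BW723C86, against 5.51, 5.44 and 4.86 CPM with DMSO. It was lower without overlap, with a log2 fold change of -0.55 ± 0.17 (SE; edgeR adjusted p = 0.020). Its call rested on single libraries, since the adjusted p was 0.071 without DMSO replicate 1 and 0.063 without DMSO replicate 2 by the same edgeR test. Rab10, which serves delivery of vesicles to the surface, was lower by a smaller amount (-0.23 ± 0.051 SE). Rab13, known from epithelial junctions, was the only higher member of this class, with 10.7, 8.96 and 10.8 CPM with BW723C86, against 7.83, 6.63 and 6.77 CPM with DMSO. All 3 BW723C86 libraries were above the DMSO range, with a log2 fold change of 0.52 ± 0.12 (SE; edgeR adjusted p = 0.0027). Rab3d and Rab8a did not pass, at -0.02 (95% interval -0.15 to 0.11) and 0.01 (-0.09 to 0.10).

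**Figure D2:**
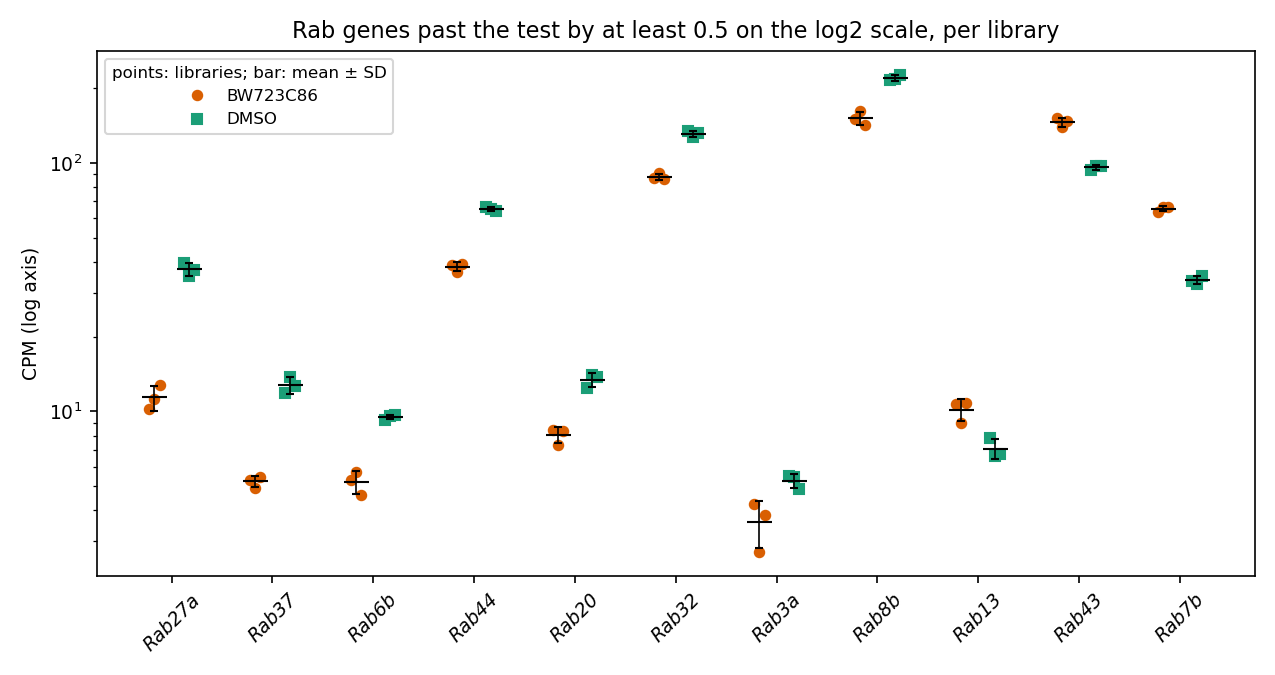
CPM (log axis) of the 11 Rab genes past the edgeR test by at least 0.5 on the log2 scale, with 1 point per library and the mean ± SD (n = 3) as bars, BW723C86 left of DMSO in each pair. In each of the 11 genes all BW723C86 libraries lie on 1 side of all DMSO libraries, lower in 8 genes and higher in Rab13, Rab43 and Rab7b.

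Markers of granule-bearing and other marrow cells moved with these falls. The summed neutrophil markers were 709 to 814 CPM with BW723C86 and 2603 to 2678 CPM with DMSO, and all 9 tested of 12 were lower. Most of this was Mmp8, and the other neutrophil markers summed to 35.3 to 39.2 CPM with BW723C86 and 228 to 239 CPM with DMSO. Mast cell markers summed to 73.3 to 77.0 CPM with BW723C86 and 159 to 165 CPM with DMSO, with 4 of 6 tested lower and none higher. Platelet markers summed to 20.1 to 25.2 CPM with BW723C86 and 160 to 170 CPM with DMSO, with 3 of 3 tested lower. Without Pf4, which led this sum, they summed to 6.70 to 9.30 CPM with BW723C86 and 14.3 to 14.5 CPM with DMSO. Monocyte markers summed to 1245 to 1360 CPM with BW723C86 and 3856 to 3910 CPM with DMSO (7 of 8 lower). Without Chil3, which led this sum, they summed to 175 to 192 CPM with BW723C86 and 678 to 682 CPM with DMSO. Lymphocyte markers summed to 1.63 to 1.94 CPM with BW723C86 and 5.88 to 8.04 CPM with DMSO (4 of 4 tested lower). No marker of these 5 lists was at 0 in every library. In bulk samples fewer cells of a type and less RNA per cell cannot be told apart, and the part of these cells in the falls of Rab27a, Rab37, Rab44 and the other members was not tested. The full sums of all 5 lists were separated between groups. Each had an exact permutation p of 0.1, the smallest that 3 against 3 libraries can give.

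Late endosomal and lysosomal Rabs moved in both directions, 3 higher and 2 lower of 6 tested. Over all tested genes 21.3% were higher and 20.7% lower. Rab7, which drives fusion of late endosomes and phagosomes with lysosomes, was the most abundant Rab mRNA per exonic length (269 CPM per kb with BW723C86 and 300.4 CPM per kb with DMSO). It had 691, 739 and 674 CPM with BW723C86, against 789, 787 and 776 CPM with DMSO. The groups did not overlap and the fall was small, -0.16 ± 0.046 (SE; edgeR adjusted p = 0.013) on the log2 scale. The call was lost without BW723C86 replicate 3, DMSO replicate 1 or DMSO replicate 2, with edgeR adjusted p of 0.068, 0.064 and 0.057. Rab7 shares 7.91% of its 100-base stretches with the pseudogene Rab7-ps1, which was not called. Rab7b, a separate gene whose protein acts between late endosomes and the trans-Golgi network, had 63.6, 66.3 and 66.2 CPM with BW723C86, against 33.5, 32.5 and 35.1 CPM with DMSO. Its BW723C86 libraries were all above its DMSO libraries, and the log2 fold change of 0.96 ± 0.055 (SE; edgeR adjusted p = 1.7e-08) was the largest rise in the family.

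Rab9, which returns receptors from late endosomes to the Golgi, and Rab29, which recruits the kinase LRRK2 to stressed lysosomes, were higher at 0.33 and 0.29 on the log2 scale. Rab24, linked to autophagy, was lower at -0.32, and this call was lost without DMSO replicate 2 (edgeR adjusted p = 0.071). Rab24 overlaps the gene Prelid1 on the other strand, and the sources used here do not say if strand was used in counting. Rab12 did not pass, at 0.01 (95% interval -0.12 to 0.15).

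On the early endosome and at the sites of uptake, 3 of 8 tested members were higher and 3 lower. The shares over all tested genes were 21.3% higher and 20.7% lower. The 3 Rab5 genes, whose proteins mark the early endosome, did not move alike. Rab5a had 61.0, 62.2 and 60.3 CPM with BW723C86, against 73.0, 68.1 and 71.7 CPM with DMSO, and fell without overlap by 0.21 ± 0.050 on the log2 scale (SE; edgeR adjusted p = 0.0039). Rab5b had 172, 181 and 180.3 CPM with BW723C86, against 159, 157 and 164 CPM with DMSO, and rose without overlap by 0.15 ± 0.044 (SE; edgeR adjusted p = 0.013). The Rab5b call was lost with scaling by total counts (adjusted p = 0.20) and without BW723C86 replicate 3, DMSO replicate 1 or DMSO replicate 2 (edgeR adjusted p = 0.087, 0.067 and 0.079). Rab5c, the most abundant of them per length (201 CPM per kb with BW723C86 and 214 CPM per kb with DMSO), had 411, 382 and 392 CPM with BW723C86, against 428, 420.2 and 414 CPM with DMSO. Its groups did not overlap, and its estimate of -0.09 (95% interval -0.19 to 0.01) did not pass, but did so as a fall without BW723C86 replicate 1 or 2 (edgeR adjusted p = 0.036 and 0.038), with DESeq2 (0.043) and with total counts (0.0058).

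Rab20, which acts on maturing phagosomes in macrophages, had 8.44, 7.35 and 8.31 CPM with BW723C86, against 12.4, 14.0 and 13.8 CPM with DMSO. The groups did not overlap, and at -0.74 ± 0.099 (SE; edgeR adjusted p = 5.1e-05) it was the largest change of this class on the log2 scale. Rab31, a relative of Rab22a that carries cargo between the Golgi and endosomes, had 132, 137 and 132 CPM with BW723C86, against 123, 121 and 121 CPM with DMSO. It rose by 0.14 ± 0.043 (SE; edgeR adjusted p = 0.020) without overlap. This call was among the least steady, lost with total counts (adjusted p = 0.30) and without BW723C86 replicate 3 or any 1 DMSO replicate (edgeR adjusted p = 0.066 to 0.088). Rab22a was higher at 0.24 and Rab21, a Rab of integrin uptake, lower at -0.25.

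Of 6 tested recycling Rabs 2 were higher and 1 lower, beside 21.3% higher and 20.7% lower over all tested genes. Rab11a, the marker of the recycling endosome, had 61.5, 69.2 and 64.0 CPM with BW723C86, against 79.5, 73.3 and 78.5 CPM with DMSO. The groups did not overlap and the log2 fold change was -0.25 ± 0.058 (SE; edgeR adjusted p = 0.0036). Rab35, which returns cargo quickly to the plasma membrane, and Rab15, another endosomal recycling Rab, were higher at 0.31 and 0.49 on the log2 scale. Rab14, which connects the Golgi with endosomes and was among the 5 most abundant Rabs per length, had 241, 263 and 243 CPM with BW723C86, against 251, 253 and 267 CPM with DMSO. Its groups overlapped, and its log2 fold change of -0.05 had a 95% interval of -0.15 to 0.06. Without BW723C86 replicate 2 it was called lower, at -0.10 (edgeR adjusted p = 0.022). Rab11b was not called at 0.12 (edgeR adjusted p = 0.062), and was called higher without BW723C86 replicate 2 (0.0019), with upper-quartile scaling (0.048), with a filter of 5 CPM in 3 libraries (0.038) and with counts divided by 4 (0.044). Rab4b did not pass, and 49.3% of the 100-base stretches of Rab4b are shared with the readthrough gene Gm21983, listed at 0.

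Between ER and Golgi, 3 of 14 tested members were higher and 3 lower. The 42.9% called in this class was close to the 42% of all tested genes. Rab1a and Rab1b, both needed for ER-to-Golgi transport, were among the 5 most abundant Rabs per length. Rab1a had 186, 207 and 192 CPM with BW723C86, against 253, 249 and 249 CPM with DMSO. It was lower in every BW723C86 library, with a log2 fold change of -0.36 ± 0.048 (SE; edgeR adjusted p = 4.7e-05). Rab1b had 364, 291 and 338 CPM with BW723C86, against 344, 349.5 and 323 CPM with DMSO, with overlapping groups and an estimate of -0.03 (95% interval -0.18 to 0.12). Rab6a, the main Rab of retrograde Golgi traffic, was lower at -0.30, and its antisense neighbour Mrpl48 rose by 0.42. Rab6b, its counterpart known from neurons, had 5.32, 5.70 and 4.59 CPM with BW723C86, against 9.27, 9.58 and 9.66 CPM with DMSO, without overlap and with a log2 fold change of -0.87 ± 0.12 (SE; edgeR adjusted p = 5.3e-05).

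Rab43, a Golgi Rab that serves cross-presentation by mouse dendritic cells, had 151, 139 and 147 CPM with BW723C86, against 93.5, 97.3 and 96.9 CPM with DMSO. It was higher in each BW723C86 library than in any DMSO library, with a log2 fold change of 0.60 ± 0.047 (SE; edgeR adjusted p = 3.7e-07). Most of its sequence, 73.8% of its 100-base stretches, is shared with the readthrough gene Gm45140, which had at most 29 counts in a library. Dendritic cell markers summed to 2364 to 2523 CPM with BW723C86 and 516 to 528 CPM with DMSO, with 6 of 8 tested higher, none lower and none at 0 in every library. Itgax alone had 2270 to 2418 CPM with BW723C86 and 463 to 475 CPM with DMSO. The other markers summed to 94.4 to 105 CPM with BW723C86 and 50.5 to 53.1 CPM with DMSO, and Ccr7 did not pass at -0.07 on the log2 scale. Their part in the rises of Rab43 and Rab7b was not tested. Rab2b and Rab19 were higher at 0.36 and 0.25. Both were lost with scaling by total counts (adjusted p = 0.079 and 0.12) and without DMSO replicate 1 (0.085 and 0.092), DMSO replicate 2 (0.12 and 0.074) or BW723C86 replicate 2 (0.16 and 0.094) in the edgeR test. The Rab19 call was also lost without BW723C86 replicate 3 (0.10) or DMSO replicate 3 (0.061). The other 8 members of this class did not pass, Rab2a and Rab18 among them at -0.11 and -0.11. Without BW723C86 replicate 2 both were called lower (edgeR adjusted p = 0.0046 and 0.0098). Of the 3 tested genes outside these classes, Rab28 was lower at -0.16, close to the threshold (edgeR adjusted p = 0.041). It passed without BW723C86 replicate 2 but not without any other single library (edgeR adjusted p = 0.054 to 0.12). Rab23 and Rab40c did not pass.

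Summed over all members, Rab mRNA was 4259 ± 30.5 CPM with BW723C86 and 4545 ± 11.7 CPM with DMSO (SD, n = 3 each), a ratio of 0.937. Per exonic length, Rab7 made 17.4% ± 0.82 of the pool with BW723C86 and 18.1% ± 0.069 with DMSO, and Rab5c and Rab1b came next in both groups. Rab14 made 5.23% with BW723C86 and 5.04% with DMSO, and Rab1a 4.47% with BW723C86 and 5.35% with DMSO, so their order differed between the groups. The make-up of this pool by role was compared per library. Lysosome-related organelles held 2.95% ± 0.088 with BW723C86 and 4.45% ± 0.13 with DMSO. Nearly all of this was Rab32 and Rab27a. Rab32 made 2.64% with BW723C86 and 3.67% with DMSO, and Rab27a 0.233% with BW723C86 and 0.710% with DMSO. Secretion and exocytosis held 9.90% to 10.2% with BW723C86 and 10.9% to 11.2% with DMSO. Recycling Rabs held 13.5% ± 0.12 with BW723C86 and 12.5% ± 0.11 with DMSO. Early endosome and uptake held 22.7% ± 0.20 with BW723C86 and 22.0% ± 0.13 with DMSO. In these classes the shares of both groups did not overlap, and no test was made. The ER and Golgi class held 24.6% ± 0.74 with BW723C86 and 24.4% ± 0.18 with DMSO, with overlapping libraries.

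**Figure D3:**
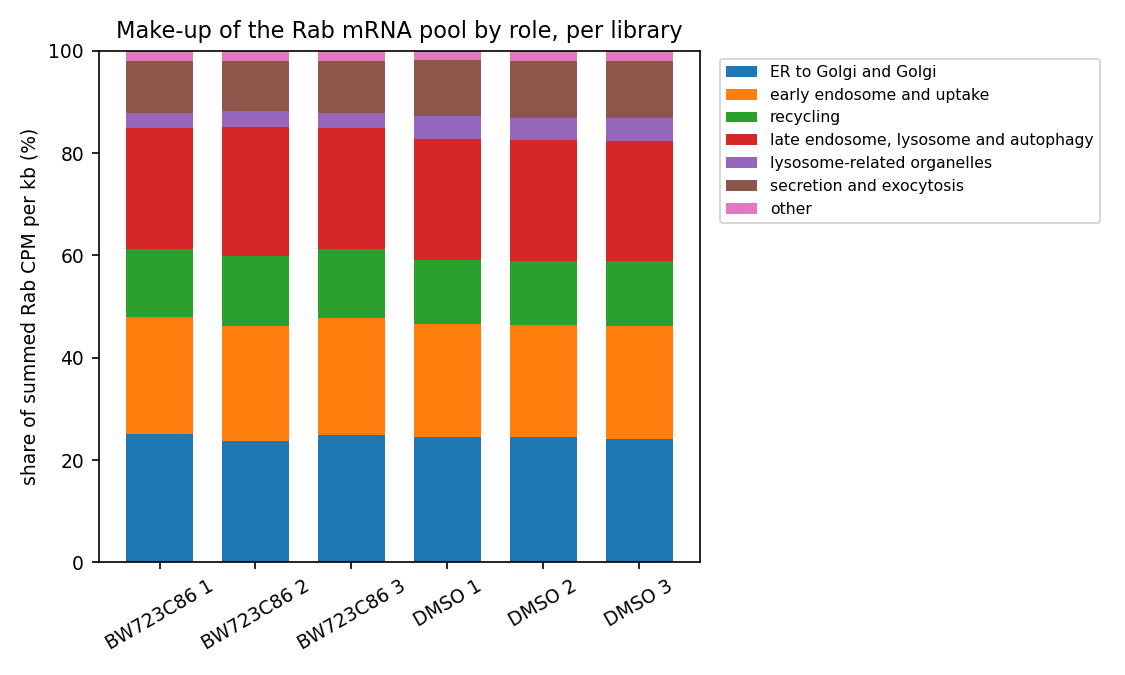
Share of summed Rab CPM per kb of exonic length (y axis, %) held by each role in each of the 6 libraries, BW723C86 left of DMSO. The purple band of lysosome-related organelles averages 2.95% ± 0.088 with BW723C86 and 4.45% ± 0.13 with DMSO, and the other bands keep similar heights.

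Paralogues of one Rab number were set against each other within libraries, as the log2 ratio of their CPM, in the 11 pairs with both genes tested. In 10 pairs the ratios did not overlap between groups, each with an exact permutation p of 0.1, the smallest possible, and a Benjamini-Hochberg value of 0.11 over the 11 pairs. No pair could therefore pass a threshold of 0.05 in this design. Of all tested genes, 52.3% were themselves separated between groups, and the share among ratios of other gene pairs was not computed. For Rab7 over Rab7b the log2 ratio was 3.44, 3.48 and 3.35 with BW723C86, against 4.56, 4.59 and 4.47 with DMSO. The difference of -1.12 was the largest, between genes whose coding sequences are 60.0% identical. For Rab8a over Rab8b, 77.5% identical, it was 0.02, -0.14 and 0.13 with BW723C86, against -0.52, -0.56 and -0.57 with DMSO, a difference of 0.55. For Rab6a over Rab6b the difference was 0.56, for Rab5a over Rab5b -0.37, for Rab11a over Rab11b -0.37 and for Rab1a over Rab1b -0.33. For Rab1, Rab2, Rab5, Rab11 and Rab27 the ratio of gene a to gene b was below the DMSO range in every BW723C86 library. For Rab6 and Rab8 it was above that range in every BW723C86 library. The Rab27 difference was -0.95, and Rab27b was scarce. The Rab33a and Rab33b ratios overlapped (exact p = 0.6).

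**Figure D4:**
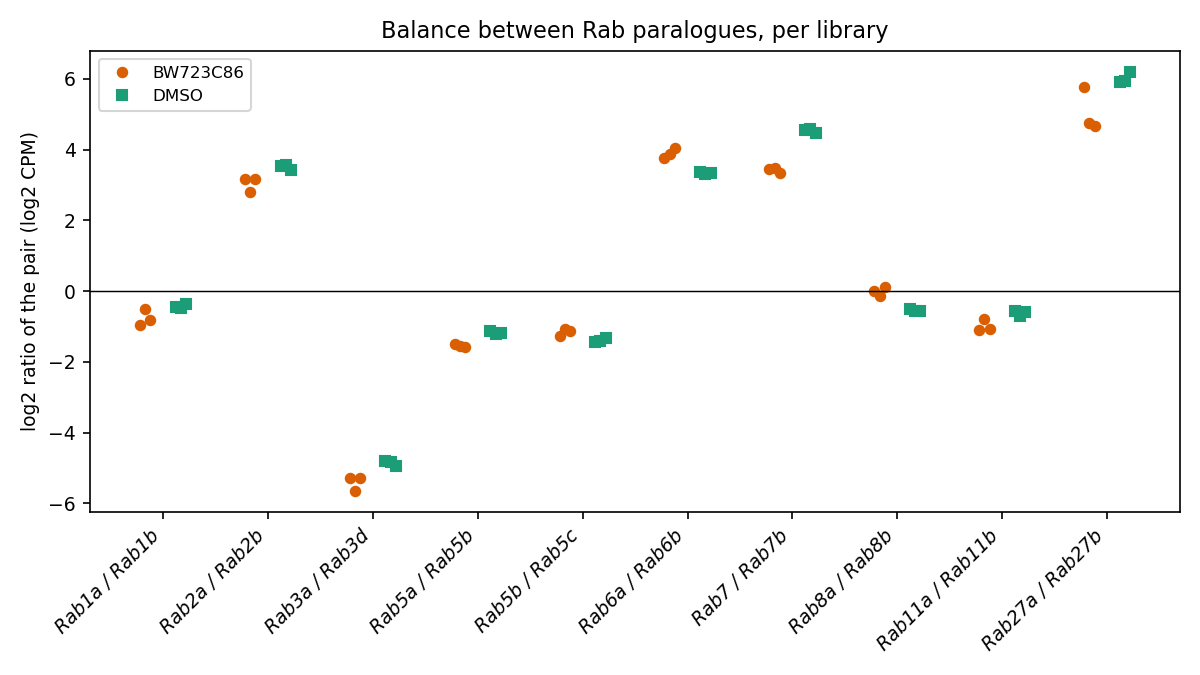
The log2 ratio of CPM of the first to the second gene in 10 paralogue pairs (y axis), 1 point per library, BW723C86 circles left of DMSO squares. The widest shift is in Rab7 over Rab7b, where the BW723C86 libraries sit between 3.35 and 3.48 and the DMSO libraries between 4.47 and 4.59.

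Exchange factors, GTPase-activating proteins and effectors rose more often than they fell. Of 45 tested exchange factors 19 were higher and 3 lower, of 38 GTPase-activating proteins 17 were higher and 5 lower, and of 61 effectors 26 were higher and 14 lower, beside 21.3% higher and 20.7% lower over all tested genes. Their median log2 fold changes were 0.15, 0.13 and 0.14. With total-count scaling 11 exchange factors were higher and 4 lower, and 18 effectors higher and 17 lower. Tested against a fold of 1.2, 13 effectors were higher and 11 lower. The lists were written from textbook knowledge with earlier results of these data known. None was tested as a set.

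Dennd4a, an exchange factor for Rab10, had the largest change on its list, with 27.1, 28.1 and 25.3 CPM with BW723C86, against 78.6, 72.1 and 77.1 CPM with DMSO. All BW723C86 values were lower, with a log2 fold change of -1.50 ± 0.061 (SE; edgeR adjusted p = 5.6e-10). Rab3il1, an exchange factor for Rab8, rose, with 193, 171 and 191 CPM with BW723C86, against 101, 99.4 and 103 CPM with DMSO and a log2 fold change of 0.87 ± 0.053 (SE; edgeR adjusted p = 3.0e-08). Dennd1a, which activates Rab35, and Dennd6a, which activates Rab14, rose by 0.50 and 0.46. Among the GTPase-activating proteins, Grtp1 rose by 1.62 ± 0.12 and Tbc1d22a by 0.49 ± 0.060 (SE), while Tbc1d8 fell by 1.06 ± 0.075 and Tbc1d15, which acts on Rab7, by 0.45 ± 0.057.

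Of 8 genes for GDI, escort and prenylation none was higher and 2 were lower (25% called, beside 42% of all tested genes). Chm, the Rab escort protein that presents new Rabs for prenylation, had 16.9, 19.2 and 17.1 CPM with BW723C86, against 29.0, 30.0 and 31.2 CPM with DMSO. The groups did not overlap and it fell by 0.76 ± 0.074 on the log2 scale (SE; edgeR adjusted p = 2.8e-06). Rabac1, a prenylated Rab acceptor, fell by 0.26 ± 0.086 (SE; edgeR adjusted p = 0.035), and was not called without DMSO replicate 1 or 2 (0.092 in both). The inhibitor Gdi2 and the transferase subunits Rabggta and Rabggtb did not pass, with log2 fold changes of -0.07, 0.07 and 0.06. The 95% interval for Gdi2, which had 581 ± 37 CPM with BW723C86 and 611 ± 15 CPM with DMSO (SD, n = 3 each), was -0.18 to 0.04.

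Effectors on the list moved in both directions. Eea1, a Rab5 effector that tethers early endosomes, had 53.4, 57.9 and 48.6 CPM with BW723C86, against 95.1, 92.9 and 100.2 CPM with DMSO, and fell by 0.85 ± 0.064 (SE; edgeR adjusted p = 2.6e-07). Plekhm1, a Rab7 effector at the lysosome, had 159, 159 and 161 CPM with BW723C86, against 93.4, 95.1 and 95.4 CPM with DMSO, and rose by 0.75 ± 0.042 (SE; edgeR adjusted p = 1.3e-08). Neither gene's groups overlapped. Myo5a, the myosin that carries Rab27a vesicles through melanophilin, rose by 0.73 ± 0.050, and Lrrk1, a kinase of Rab7, by 0.78 ± 0.060 (SE). Lrrk2, whose kinase Rab29 recruits, fell without overlap by 0.49 ± 0.066 (SE; edgeR adjusted p = 5.4e-05). All 7 subunits of the HOPS and CORVET tethers on the list, which act with Rab7 and Rab5, rose by 0.15 to 0.24. That group was chosen after its values were seen. Of the 7 genes 4 passed without DMSO replicate 3, 1 with total-count scaling and none against a fold of 1.2.

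Effectors of Rab27, also grouped after their values were seen, mostly fell with Rab27a: of 6 tested, 5 were lower and 1 higher. Over all tested genes 20.7% were lower and 21.3% higher. Most of these effectors were scarce, and with a filter of 5 CPM in 3 libraries only 1, Unc13d, was tested. Myo5a, which rose, was not counted in this group. Rph3a, a scarce gene also on the effector list, was not counted either, and did not pass at 0.72 (edgeR adjusted p = 0.40). Sytl1, a synaptotagmin-like Rab27 effector, had 1.05, 0.931 and 1.01 CPM with BW723C86, against 3.94, 4.04 and 3.16 CPM with DMSO. Mlph, or melanophilin, had 0.680, 0.570 and 0.709 CPM with BW723C86, against 1.85, 1.81 and 1.48 CPM with DMSO. Both were separated between groups, with log2 fold changes of -1.90 and -1.39. Unc13d, which encodes the priming factor Munc13-4, fell by 0.16 (edgeR adjusted p = 0.049), a call that was kept without BW723C86 replicate 1 and lost without any other single library (edgeR adjusted p = 0.055 to 0.14). Without DMSO replicate 1 or DMSO replicate 3, 3 of 5 tested were lower. Myrip was the exception, with counts of 26, 61 and 24 with BW723C86 and 0 in each DMSO library. The neutrophil, monocyte, mast cell, lymphocyte and platelet marker sums were lower with this group too, and their part in it was not tested.

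**Figure D5:**
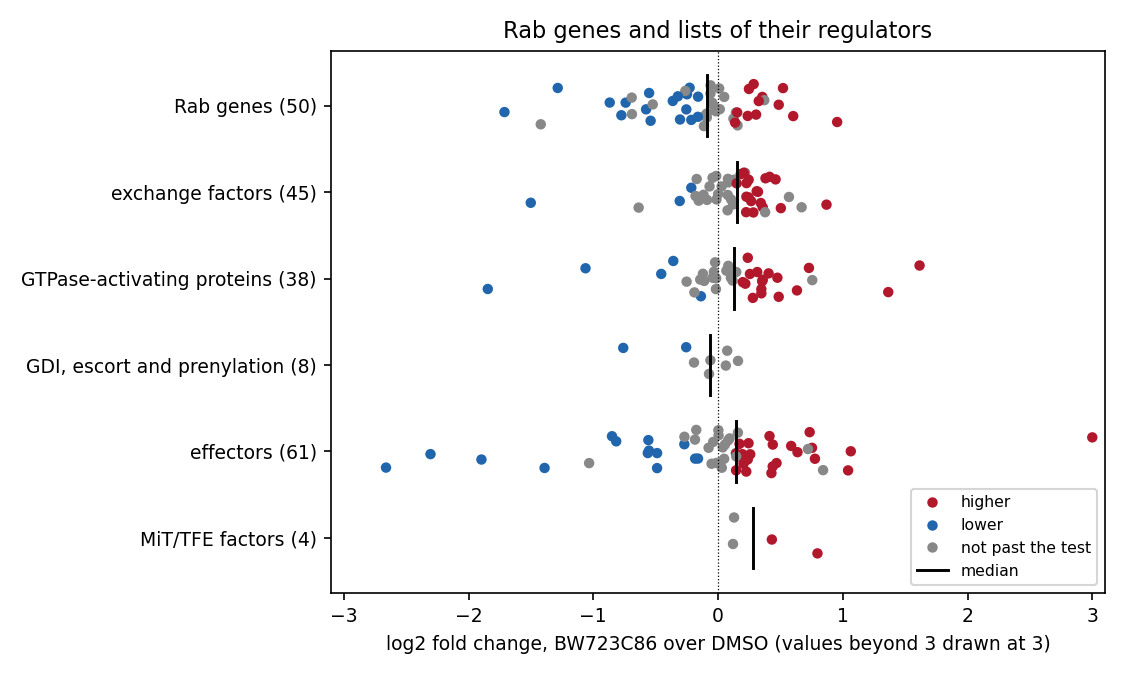
The log2 fold change (x axis, BW723C86 over DMSO) of every tested Rab gene and of each gene on 5 lists of their regulators, with the number tested in brackets and the median as a black bar, red where higher, blue where lower and grey where the edgeR test was not passed. Exchange factors, GTPase-activating proteins and effectors have medians of 0.15, 0.13 and 0.14, and the Rab genes -0.09; Myrip, at 0 with DMSO, is drawn at the edge.

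The MiT/TFE factors, which control lysosomal genes through CACGTG-type boxes, were 2 higher of 4 tested, where 21.3% of all tested genes were higher. Tfeb had 79.3, 70.8 and 78.7 CPM with BW723C86, against 44.2, 45.5 and 41.9 CPM with DMSO, without overlap, and a log2 fold change of 0.80 ± 0.060 (SE; edgeR adjusted p = 2.6e-07). Tfe3 rose by 0.43 ± 0.054 (SE), and Mitf did not pass at 0.13 (95% interval 0.00 to 0.25). RefSeq gene starts in build GRCm38.p6 matched 47 of the members. In the 250 bases before these starts CACGTG, which reads the same on both strands, was found in 5 of them (10.6%), against 6.86% of 27025 genes. The longer TCACGTG, on either strand, contained the shorter box and was in 3 members (6.38% against 3.58%), and TGACTCA, an AP-1 box, was in Rab15 and Rab34 (4.26% against 5.16%). The windows with the box in capitals are shown for Rab27a, Rab20, Rab21 and Rab5a, each on the strand of its gene. All of these passed the test and were lower with BW723C86. Changes of genes with and without the box were not compared.
Rab27a, plus strand of chr9:73063898-73063934: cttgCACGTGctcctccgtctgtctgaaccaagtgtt
Rab20, minus strand of chr8:11478654-11478713: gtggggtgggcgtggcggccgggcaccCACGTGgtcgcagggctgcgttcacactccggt
Rab21, minus strand of chr10:115315592-115315648: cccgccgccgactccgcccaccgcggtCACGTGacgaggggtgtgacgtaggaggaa
Rab5a, plus strand of chr17:53478984-53479031: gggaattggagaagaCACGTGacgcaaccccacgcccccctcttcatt
Rab5a, plus strand of chr17:53479112-53479171: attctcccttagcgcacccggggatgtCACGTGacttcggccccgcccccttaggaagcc
The box began 246 bases before the second of the starts listed for Rab27a, 46 before that of Rab20, 30 before that of Rab21, and 235 and 95 before that of Rab5a. The fifth member with the box, Rab23, did not pass the test, with a log2 fold change of 0.16 (95% interval -0.11 to 0.43). These matches describe the letters in the windows, and binding at them was not measured.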

How the data were processed

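Per the labels' protocols, poly(A) RNA was fragmented, copied into dUTP-marked cDNA and sequenced as paired ends. The tools fastp, HISAT2, StringTie and edgeR, and both GRCm39 and GRCh38 as builds, are listed per the submitters' processing notes, without version, role or order, and the use of strand in counting is not stated there. Values were deposited as estimated counts for each gene and are all whole, so rounding changed none. Low values pile up at multiples of 4, so the counts that 1 fragment is worth are uncertain and counts divided by 4 were tried. Symbols, gene types and exonic lengths came from GENCODE M21, which describes GRCm38, so no gene coordinates are given; promoter sequences are RefSeq's.

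The 3 BW723C86 and 3 DMSO libraries were compared with edgeR 4.0.16 in R 4.3.3 (TMM, filterByExpr by group, robust quasi-likelihood F test, two-sided, Benjamini-Hochberg over 15567 genes), tested on simulated data. CPM are TMM-scaled; a count of 3 was taken as the floor. Every pair of replicates differed by more than sampling noise and was kept. Values per library are given for members called with a change of at least 0.5 on the log2 scale, the 5 most abundant per length and Rabs named in phagosome and lysosome traffic; from lists, the 4 genes of smallest p and a panel are named, some by log2 fold change alone. Rab27b, Rab42, Sytl1, Mlph, Unc13d, Myrip, Rph3a and Lrrk2 were added after their values were seen. Members and lists were chosen with earlier results of these data known. Alternatives were other scalings, filters and tests (DESeq2 1.42.0, limma-voom with limma 3.58.1, a fold of 1.2), a replicate block and each library left out.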

Additional observations from a re-analysis of the deposited data

How the results depend on the processing

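The direction of every named Rab gene called at 0.5 or more on the log2 scale was kept under all alternatives run, and of these 11 only Rab3a lost its call (against a fold of 1.2, and without DMSO replicate 1 or 2). Against a fold of 1.2, 3208 genes passed (20.6% of those tested), among them 4 Rab genes higher and 8 lower, 4 exchange factors higher and 1 lower, 6 GTPase-activating proteins higher and 3 lower, 1 gene for GDI, escort and prenylation lower, and 13 effectors higher and 11 lower. With scaling by total counts, 11 exchange factors were higher. The log2 ratio of summed CPM, BW723C86 over DMSO, became -0.17 for all members, -0.14 for ER and Golgi, -0.10 for early endosome, -0.14 for late endosome, -0.83 for lysosome-related organelles, -0.33 for secretion, -0.11 for the others and, reversed in sign from 0.03, -0.046 for recycling. The cause was not tested. Leaving out 1 library gave 8 to 12 Rab genes higher and 13 to 21 lower, and 0 to 1 higher and 1 to 4 lower of the GDI, escort and prenylation genes. The difference in the Rab33a to Rab33b ratio ran from -1.59 to 0.27, turning sign without BW723C86 replicate 2; Rab33a had few counts. Same-numbered libraries did not deviate together (r = -0.02 to 0.03), so the numbers do not pair them; with the replicate block 11 Rab genes were higher and 16 lower, and Rab28 and Rab31 lost their calls. Depth limits Rab17, Rab30, Rab33a, Rab36 and Rab39, whose intervals are wide, and the 8 untested members, and an adjusted p that misses the threshold does not show that a gene did not change.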

Other observations

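Arf and Arl genes, and Ras, Ral and Rap genes, gathered after earlier results were known, also moved in both directions, beside 21.3% higher and 20.7% lower over all tested genes. Of 26 tested Arf and Arl genes 7 were higher and 5 lower. Arl8b, which positions lysosomes and recruits the HOPS tether, had 225, 240.0 and 227 CPM with BW723C86, against 174, 161 and 174 CPM with DMSO, and Arl8a had 104, 100.3 and 104 CPM with BW723C86, against 83.0, 83.8 and 80.7 CPM with DMSO. Both were separated between groups and called higher, at 0.44 and 0.32 on the log2 scale. Of 19 tested Ras, Ral and Rap genes 6 were higher and 4 lower, with rises of 3.07 in Diras2, 2.01 in Mras and 1.90 in Rras2 and a fall of 0.70 in Rap1a. Of 6 Rab-like genes and Ran 1 was higher and none lower.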
